A study of Bos taurus with 9 samples.

Results

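SFRP2, GAS1, CDKN1C, CILP, PODN, MXRA8, LOXL1 and MMP16 are 8 genes for secreted, cell surface or cell cycle regulators of connective tissue, and they were taken from the genes that the study lists as higher in super-shedders. They are 8 of the 24616 Ensembl genes in the deposited table, matched by Ensembl identifier, and all 8 were among the 15410 genes that passed the filter of at least 0.5 CPM in at least 4 steers. The genes were chosen by their measured expression in the same steers, since the study's own fold change between groups put them on that list. Their values in super-shedders (SS) and non-shedders (NS) are given as a description with no test. The reference rows are COL1A2, a chain of type I collagen made by fibroblasts, and DES, the desmin of smooth muscle.

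RNA was sequenced from whole rectal tissue of 9 crossbred feedlot steers on a barley-based finishing diet, with 1 library per steer. The 5 SS (steers 274, 287, 294, 299 and 310) had shed E. coli O157 above the super-shedding level when first sampled, and the 4 NS (steers 108, 152, 165 and 242) were pen-mates whose faeces were negative by culture. Tissue was taken at slaughter, some days after the first sampling, when SS 310 was still above that level and the other 4 SS were known only to be positive on the day before. Biopsies were cut a short distance above the recto-anal junction and held every layer they caught, so the share of epithelium, muscle, fat and connective tissue could vary between animals. Values are CPM, the reads on a gene scaled to a fixed total of reads on all genes, equal for every library, and the totals ran from 5412523 reads in SS 274, where 1 read is 0.185 CPM, to 12278503 in NS 108. The lowest count of any of the 8 genes was 7 reads, for GAS1 in SS 310, and intervals given with single values are exact 95% Poisson intervals that cover counting error only.

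The connective tissue of the gut wall is made by fibroblasts, which secrete collagens and the proteoglycans, cross-linking enzymes and proteases that arrange them. The same cells make modulators of Wnt, hedgehog and TGF-beta signalling that act on the epithelium and on neighbouring stromal cells. Fibroblasts are found in the lamina propria, the submucosa, the sheaths between muscle bundles and around fat, so their transcripts can come from any layer of a biopsy.

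The 8 genes lie on 8 chromosomes of the UMD3.1 build. SFRP2 (ENSBTAG00000018563) is at chr17:3829563-3838136, GAS1 (ENSBTAG00000046803) at chr8:81511016-81512051 and CDKN1C (ENSBTAG00000031184) at chr29:49368786-49370785. CILP (ENSBTAG00000002821) is at chr10:12099599-12114284, PODN (ENSBTAG00000012514) at chr3:93728704-93751305 and MXRA8 (ENSBTAG00000012247) at chr16:52424101-52428456. LOXL1 (ENSBTAG00000009086) is at chr21:35057677-35082119 and MMP16 (ENSBTAG00000006877) at chr14:76757694-77111545. GAS1 and CDKN1C are the shortest loci, with spans of 1036 and 2000 bases, and MMP16 is the longest at 353852 bases. CPM is not divided by gene length, so levels are compared between steers and not between genes.

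The high values of these genes came from a pair of SS libraries. SS 274 held the highest level of 9 steers for 7 of the 8 genes, against 11.9% of the genes tested, and SS 294 held it for MMP16, against 17.4%. Both libraries were the 2 highest of all steers for 6 of the 8 genes, against 8.46% of the genes tested, and the exceptions were GAS1 and CDKN1C, for which NS 242 exceeded SS 294. The other 3 SS did not stand above the NS as a group, and SS 287 held the lowest level of all steers for 7 of the 8 genes, where 24.8% of the genes tested had their lowest value. In bulk tissue, fewer cells of a type and less RNA per cell cannot be told apart, and this holds for every level given here.

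SFRP2 encodes a secreted frizzled-related protein that binds Wnt ligands outside the cell. Its level was 9.85, 35.0, 22.2 and 38.0 CPM in NS 108, 152, 165 and 242. In SS 274, 287, 294, 299 and 310 it was 491, 3.73, 199.7, 33.5 and 19.3 CPM. SS 274 and SS 294 were above every NS, SS 299 and SS 310 were within the NS range, and SS 287 was below it. The mean was 149 ± 206 CPM in SS (SD, n = 5) and 26.3 ± 12.9 CPM in NS (SD, n = 4), and SS 274 alone held 65.7% of the SFRP2 signal summed over the 5 SS.

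GAS1 encodes a growth arrest protein anchored at the cell surface, which also acts as a co-receptor for hedgehog ligands. It was the gene with the fewest reads, at 1.55, 2.01, 3.85 and 10.1 CPM in NS 108, 152, 165 and 242. It reached 44.7 CPM in SS 274 (95% interval 39.3 to 50.7) and was 1.02, 9.08, 2.39 and 0.608 CPM in SS 287, 294, 299 and 310. SS 274 was the single SS above every NS, SS 294 and SS 299 were within the NS range, and SS 287 and SS 310 were below it. The means were 11.6 ± 18.8 CPM in SS (SD, n = 5) and 4.39 ± 3.96 CPM in NS (SD, n = 4), while the median of the SS, 2.39 CPM, was under that of the NS, 2.93 CPM.

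CDKN1C encodes an inhibitor of cyclin-dependent kinases that holds cells out of the cycle, and it is an imprinted gene in mammals. Its level was 3.42, 4.69, 9.38 and 16.8 CPM in NS 108, 152, 165 and 242. In SS 274 it was 180.3 CPM (95% interval 169 to 192), against 2.29, 14.9, 4.65 and 4.34 CPM in SS 287, 294, 299 and 310. SS 274 therefore stood alone: it held 87.3% of the CDKN1C signal summed over the 5 SS, its level was 10.7 times that of the next steer, NS 242, and SS 294 was within the NS range. Means were 41.3 ± 77.9 CPM in SS (SD, n = 5) and 8.57 ± 6.05 CPM in NS (SD, n = 4).

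CILP encodes cartilage intermediate layer protein, a matrix protein that binds TGF-beta and dampens its action. NS 108, 152, 165 and 242 had 10.4, 16.1, 21.3 and 44.5 CPM of CILP. SS 274, 287, 294, 299 and 310 had 227, 3.64, 112, 24.5 and 24.3 CPM. The 2 high SS were above every NS, SS 299 and SS 310 were inside the NS range, and SS 287 was below it. CILP averaged 78.4 ± 93.2 CPM in SS (SD, n = 5) and 23.1 ± 15.0 CPM in NS (SD, n = 4).

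PODN encodes podocan, a small leucine-rich proteoglycan that binds collagen. It was at 10.99, 15.3, 27.1 and 48.4 CPM in NS 108, 152, 165 and 242. It was at 183, 3.30, 121, 23.4 and 14.6 CPM in SS 274, 287, 294, 299 and 310. The order of the steers was close to that of CILP, with SS 274 and SS 294 above every NS, NS 242 next, and SS 287 lowest. PODN averaged 69.0 ± 79.1 CPM in SS (SD, n = 5) and 25.5 ± 16.7 CPM in NS (SD, n = 4).

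MXRA8 encodes a cell adhesion protein associated with matrix remodelling. It was at 12.9, 17.1, 20.9 and 23.7 CPM in NS 108, 152, 165 and 242. It was at 111, 10.4, 71.3, 33.9 and 20.1 CPM in SS 274, 287, 294, 299 and 310. Here 3 SS (274, 294 and 299) were above every NS, SS 310 was within the NS range and SS 287 was below it. The means were 49.4 ± 41.6 CPM in SS (SD, n = 5) and 18.7 ± 4.66 CPM in NS (SD, n = 4).

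LOXL1 encodes a lysyl oxidase-like enzyme that cross-links elastin. Its levels in the NS were close together, at 17.3, 15.9, 17.8 and 17.0 CPM in NS 108, 152, 165 and 242. In SS 274, 287, 294, 299 and 310 it was at 97.0, 12.7, 46.2, 21.0 and 15.2 CPM. No SS was within the narrow NS range, since 3 were above it and SS 287 and SS 310 were below it. The mean was 38.4 ± 35.3 CPM in SS (SD, n = 5) and 17.0 ± 0.819 CPM in NS (SD, n = 4).

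MMP16 encodes a membrane-type matrix metalloproteinase that cleaves matrix proteins at the cell surface. It was at 14.3, 32.6, 22.3 and 17.0 CPM in NS 108, 152, 165 and 242. Its highest level was in SS 294, at 183 CPM (95% interval 174 to 193), and SS 274, 287, 299 and 310 had 102, 8.89, 58.4 and 13.9 CPM. SS 294, SS 274 and SS 299 were above every NS, in that order, and SS 287 and SS 310 were below every NS. The means were 73.3 ± 72.1 CPM in SS (SD, n = 5) and 21.5 ± 8.08 CPM in NS (SD, n = 4).

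**Figure D1:**
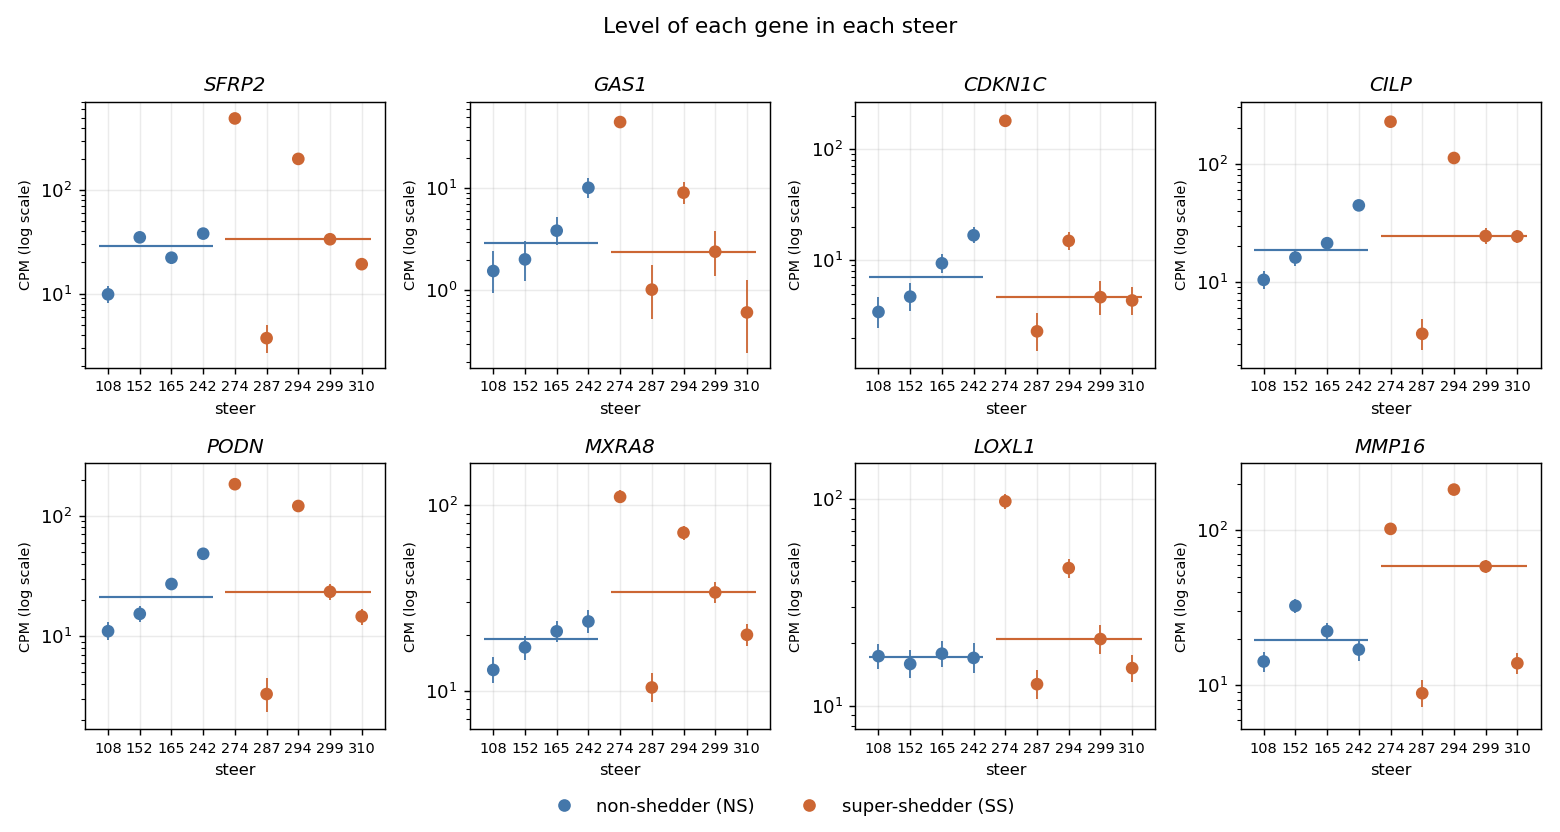
Level of each of the 8 genes in CPM on a log axis, by steer, with 1 point per library, vertical bars for the exact 95% Poisson interval and horizontal lines for the group medians. SS 274 is the highest point in 7 panels and SS 294 in the MMP16 panel, while the SS and NS points overlap in every panel.

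None of the 8 genes separated the groups, meaning that in no case was every SS above every NS or every SS below every NS. Of the genes tested, 2.26% did so in either direction, and 0.162% had every SS above every NS. Within the NS, steer 242 was the highest for 6 of the 8 genes, where it was the highest NS for 45.9% of the genes tested, and the exceptions were LOXL1 (NS 165) and MMP16 (NS 152). NS 108 was the lowest NS for 7 of the 8 genes, LOXL1 being lowest in NS 152.

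The size of the excess in SS 274 differed between the genes more than the excess in SS 294 did. Against the median of the 7 steers other than SS 274 and SS 294, CDKN1C was 38.8 times as high in SS 274 and 3.22 times in SS 294. GAS1 was 22.2 times as high in SS 274 and 4.51 times in SS 294, and SFRP2 was 22.1 and 8.98 times as high. CILP and PODN were 10.7 and 11.9 times as high in SS 274 and 5.26 and 7.87 times in SS 294. MXRA8 and LOXL1 were 5.55 and 5.70 times as high in SS 274 and 3.55 and 2.71 times in SS 294. MMP16 went the other way, at 6.005 times in SS 274 and 10.8 times in SS 294. COL1A2 itself was 7.60 times as high in SS 274 and 4.94 times in SS 294, and DES was 0.0220 times as high in SS 274 and 5.35 times in SS 294. All 8 genes reached at least 5 times that median in SS 274 and at least 2 times in SS 294, limits chosen after the values were seen. Of the genes tested, 2.74% met the first limit, 14.8% the second and 1.97% both.

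The ratio of SS 274 to SS 294 put these differences into single values whose counting error is known. It was 12.1 for CDKN1C (95% interval 9.91 to 14.8) and 4.93 for GAS1 (3.75 to 6.55). It was 2.46 for SFRP2 (2.31 to 2.62), 2.10 for LOXL1 (1.83 to 2.41) and 2.03 for CILP (1.86 to 2.22). PODN and MXRA8 had ratios of 1.52 (1.39 to 1.66) and 1.56 (1.39 to 1.76), next to 1.54 (1.52 to 1.56) for COL1A2. MMP16 had a ratio of 0.558 (0.505 to 0.616). With 1 library per steer these intervals compare the libraries and hold no variation between biopsies of a steer, so they do not show that the steers differ.

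**Figure D2:**
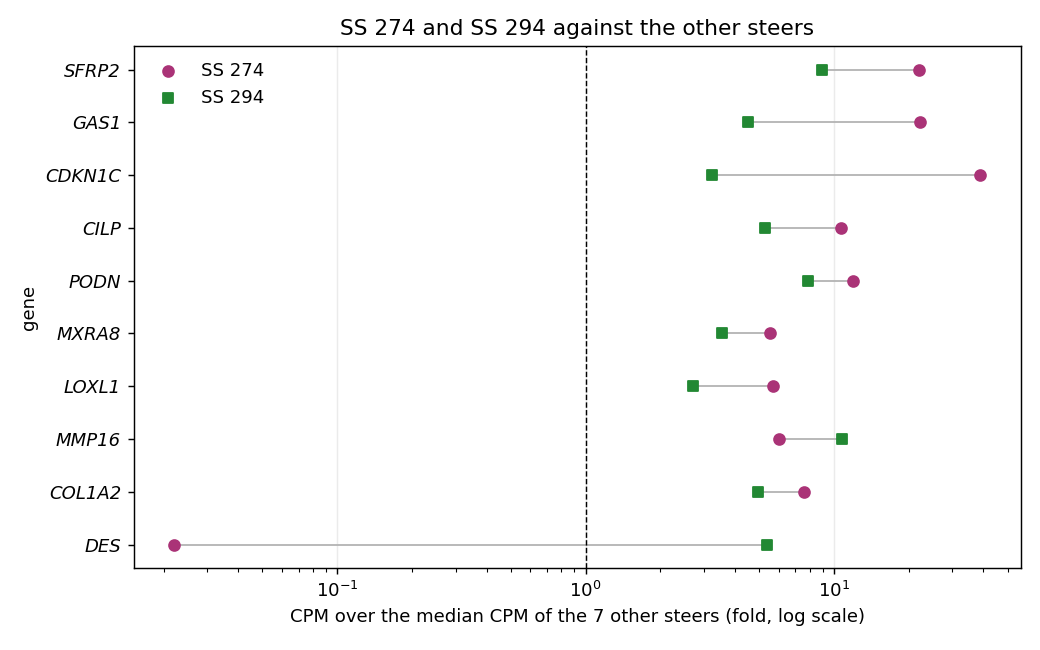
CPM of each gene in SS 274 (circles) and SS 294 (squares) divided by the median CPM of the 7 other steers, on a log axis with a dashed line at 1. CDKN1C is farthest to the right in SS 274 at 38.8, MMP16 is the gene among the 8 with the larger value in SS 294, and DES lies at 0.0220 in SS 274.

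Since the high libraries were few, the difference between groups depended on how a group was summarised. The added 0.5 in mean log2(CPM + 0.5) compresses ratios of low values, and for GAS1, the lowest gene, the difference was 0.15 with 0.1 added and 0.29 with 1 added. With 0.5 added, the difference SS minus NS was 1.04 for SFRP2, 0.23 for GAS1, 0.57 for CDKN1C and 0.83 for CILP. It was 0.50 for PODN, 0.95 for MXRA8, 0.72 for LOXL1 and 1.04 for MMP16. All 8 were above 0 in CPM, as were 35.2% of the genes tested. The median of the 8 was 0.78, against -0.13 over all genes tested. After median-of-ratios or TMM scaling all 8 stayed above 0, with medians of 0.92 and 0.88 against 0.01 and -0.03 over all genes. They were taken from genes listed as higher in these same SS, so their direction is no separate support. The log2 ratio of the mean CPM was larger for each gene, for example 2.27 against 0.57 for CDKN1C and 2.51 against 1.04 for SFRP2. In the limma fit 0 of 15410 genes (0%) were called at an adjusted p below 0.05 with an absolute log2 difference above 1. The lowest adjusted p of any gene was 0.234. Unadjusted p-values below 0.05 were found for 610 genes (3.96%), 55 of them (0.357%) with the higher mean in SS and 555 with the lower, and this split depended on the scaling and the tool, at 192 and 267 after median-of-ratios scaling. edgeR called 0 genes as well, and gave 240 genes with the higher and 357 with the lower level in SS (597 in all) under the unadjusted limit. DESeq2 called 19, all lower in SS, and under the same limit gave 497 with the higher and 400 with the lower level, so none of the 8 genes was among the calls.

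Without SS 274 the differences of GAS1, CDKN1C and PODN turned below 0, at -0.59, -0.42 and -0.14. SFRP2, CILP and LOXL1 were then at 0.21, 0.18 and 0.29. The largest differences were those of MXRA8 and MMP16, at 0.54 and 0.73, down from 0.95 and 1.04. Without SS 294 in place of SS 274, GAS1 stood at -0.03 and PODN at 0.01, and the other 6 genes were between 0.43 and 0.70. Without both libraries, 1 of the 8 genes was above 0, MXRA8 at 0.08. The other 7 were then below 0, from -0.07 for MMP16 and -0.09 for LOXL1 to -1.003 for PODN and -1.21 for GAS1, with a median of -0.67 over the 8. The remaining 3 SS had a mean of 1.34 ± 0.936 CPM for GAS1 (SD, n = 3), 13.8 ± 10.1 for PODN and 18.8 ± 14.9 for SFRP2, while MMP16 was at 27.1 ± 27.3 CPM because SS 299 was at 58.4.

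**Figure D3:**
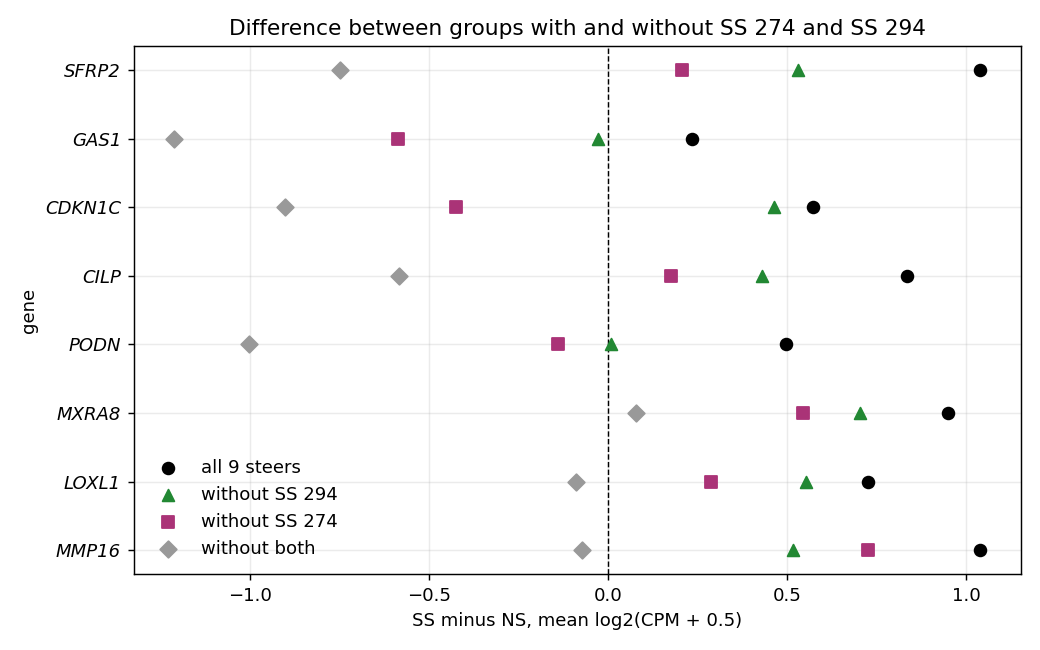
Difference SS minus NS of mean log2(CPM + 0.5) for each gene, with all 9 steers (circles), without SS 294 (triangles), without SS 274 (squares) and without both (diamonds), beside a dashed line at 0. All circles are to the right of 0, and without both libraries MXRA8 alone remains there, at 0.08.

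Over all 9 steers the levels of the genes went with that of COL1A2, and for MXRA8, LOXL1 and MMP16 this was less so outside SS 274 and SS 294. COL1A2 was at 1005, 1821, 1099.7 and 3009 CPM in NS 108, 152, 165 and 242, and at 8354, 505, 5436, 1181 and 1059 CPM in SS 274, 287, 294, 299 and 310. Its highest steers were thus SS 274, SS 294 and NS 242, as for SFRP2, GAS1, CDKN1C, CILP and PODN, though not always in that order. Its lowest was SS 287, as for 7 of the 8 genes. Divided by COL1A2, each of the 8 genes spanned a smaller fold range over the 9 steers than its CPM did. The range of SFRP2 went from 132-fold to 7.96-fold, that of CILP from 62.5-fold to 3.78-fold and that of PODN from 55.4-fold to 3.77-fold. The median range of the 8 genes was 58.9-fold in CPM and 6.20-fold relative to COL1A2. Over the 7 steers without SS 274 and SS 294 the range was smaller relative to COL1A2 for SFRP2, GAS1, CDKN1C, CILP and PODN, for example 3.18-fold against 12.2-fold for CILP. It was wider for MXRA8 (3.66-fold against 3.26-fold), LOXL1 (4.45-fold against 1.65-fold) and MMP16 (8.75-fold against 6.57-fold). Pearson's r with COL1A2 on the log2(CPM + 0.5) scale over the 9 steers was 0.96 for SFRP2, 0.95 for CILP and PODN, 0.90 for GAS1 and 0.88 for CDKN1C. It was 0.89 for MXRA8, 0.87 for LOXL1 and 0.80 for MMP16. Over the 7 steers without SS 274 and SS 294, r was still 0.86 for SFRP2 and PODN and 0.84 for CILP, but 0.56 for MXRA8, 0.45 for LOXL1 and 0.40 for MMP16. Each point in these correlations is 1 library, and all genes of a library share its tissue makeup and depth.

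Relative to COL1A2, SS 274 was the highest steer for SFRP2, GAS1, CDKN1C and CILP. CDKN1C was at 21.6 CPM per 1000 CPM of COL1A2 in SS 274, and between 2.58 (NS 152) and 8.53 (NS 165) in the other 8 steers. SFRP2 was at 58.7 per 1000 in SS 274 and at 36.7, 28.4 and 18.2 in SS 294, 299 and 310, against 9.80, 19.2, 20.2 and 12.6 in NS 108, 152, 165 and 242. SS 287, at 7.38, was below all of these, so the groups overlapped for SFRP2 on this scale too. GAS1 was at 5.35 per 1000 in SS 274, and the next steers were NS 165 at 3.50 and NS 242 at 3.37. CILP was at 27.2 per 1000 in SS 274, with 23.0, 20.8 and 20.6 in SS 310, 299 and 294, and 19.4 in the highest NS, steer 165.

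The remaining genes did not have their highest level relative to COL1A2 in SS 274. PODN was at 21.9 per 1000 in SS 274 and 22.2 in SS 294, both below NS 165 at 24.7. MXRA8 was at 13.3 and 13.1 in SS 274 and SS 294, near NS 108 at 12.9, and it was highest in SS 299 at 28.7. LOXL1 was at 11.6 and 8.50 in SS 274 and SS 294 and was highest in SS 287 at 25.2, the library in which its CPM was lowest. MMP16 was at 49.5 in SS 299 and 33.7 in SS 294, against 12.2 in SS 274 and 5.65 to 20.3 in the NS. The difference SS minus NS relative to COL1A2 was above 0 for 7 of the 8 genes on the log2 scale, from 0.18 for PODN to 0.72 for SFRP2 and MMP16, and was -0.08 for GAS1. Without SS 274 and SS 294 it was 0.95 for MXRA8, 0.80 for MMP16, 0.78 for LOXL1, 0.29 for CILP and 0.12 for SFRP2, and below 0 for the other 3. The groups overlapped for all 8 genes on this scale. Mean levels per 1000 CPM of COL1A2 were 16.8 ± 6.68 in SS and 15.0 ± 7.17 in NS for PODN, and 29.9 ± 19.5 in SS and 15.5 ± 5.06 in NS for SFRP2 (SD, n = 5 and 4).

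**Figure D4:**
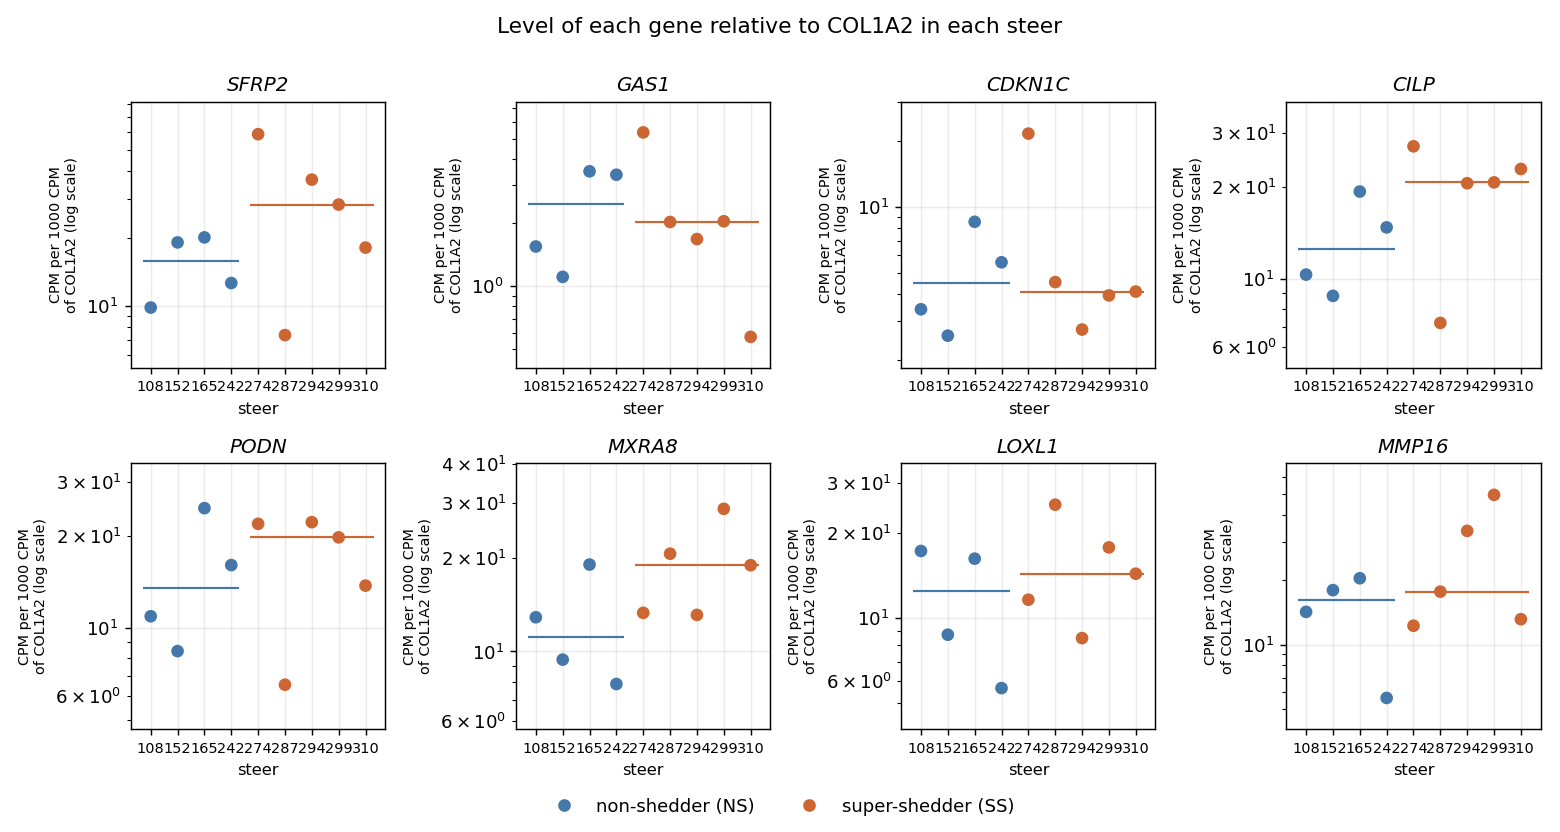
CPM of each gene per 1000 CPM of COL1A2 on a log axis, by steer, with horizontal lines for the group medians. SS 274 is the highest steer for SFRP2, GAS1, CDKN1C and CILP, at 58.7, 5.35, 21.6 and 27.2, and lies among the other steers for PODN, MXRA8, LOXL1 and MMP16.

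DES stood apart from the 8 genes in SS 274 and was closer to some of them elsewhere. It was at 1661, 1266, 2196 and 381 CPM in NS 108, 152, 165 and 242, and at 27.9, 203, 6775, 4234 and 536 CPM in SS 274, 287, 294, 299 and 310. SS 274 was thus the lowest steer for DES and SS 294 the highest, although both were high for the 8 genes. Pearson's r with DES over the 9 steers lay between -0.54 for CDKN1C and 0.18 for MMP16. Over the 7 steers without SS 274 and SS 294 it was 0.87 for LOXL1, 0.81 for MMP16 and 0.56 for MXRA8, which for LOXL1 and MMP16 was above their r with COL1A2 of 0.45 and 0.40. Relative to DES, SS 274 was the highest steer for all 8 genes, for example at 17583 CPM of SFRP2 per 1000 CPM of DES where the other 8 steers had 5.93 to 99.8. CDKN1C was at 6464 per 1000 in SS 274 and at 1.10 to 44.1 in the other steers, and MMP16 at 3662 and at 8.58 to 44.7. Those ratios carry the low DES level of SS 274, which rested on 151 reads.

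Marker genes of other cells moved with the same libraries. The summed CPM of 10 of 12 fibroblast markers was 29981 in SS 274 and 19643 in SS 294, against 2591 to 9686 in the other 7 steers, with SS 287 the lowest and NS 242 the highest of them. The sum of the 3 adipocyte markers with a name here (of 7: FABP4, LPL and CD36) was 4550.2 in SS 274, 537 in SS 294 and 1064 in NS 242, against 49.4 to 406 in the other 6 steers. FABP4, the fatty acid binding protein of fat cells, was at 1219 CPM in SS 274 and at 0.423 CPM in SS 287. The sum of 10 of 11 smooth muscle markers was 444 in SS 274 and 57713 in SS 294, and 1982 to 29801 in the other 7 steers. The sum of 10 of 16 colonic epithelium markers was 1235 in SS 274, 167 in SS 294 and 1689 in NS 242, against 11415 to 24729.5 in the other 6. None of the 10 epithelial markers was at 0 in either library, PIGR, which carries antibodies across the epithelium, being at 389 CPM in SS 274 and 82.2 CPM in SS 294. SS 274 also had the smallest total of reads on genes, and its 12 named mitochondrial genes took 5.77% of the reads, against 1.75% to 4.39% in the other steers. The part of these tissue differences and of depth in the levels of the 8 genes was not tested.

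**Figure D5:**
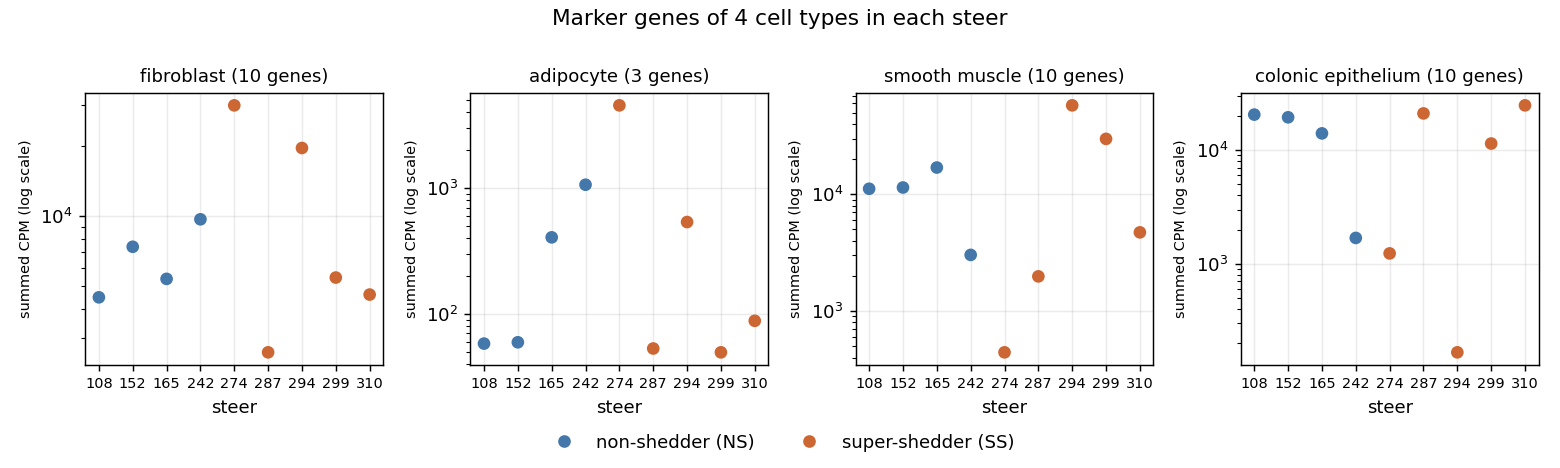
Summed CPM of the named marker genes of fibroblasts, adipocytes, smooth muscle and colonic epithelium in each steer, on log axes, with 1 point per library. SS 274 is highest for fibroblasts (29981) and adipocytes (4550.2) and lowest for smooth muscle (444), while SS 294 is highest for smooth muscle (57713) and lowest for epithelium (167).

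Among themselves the 8 genes were most alike for CILP and PODN, with r of 0.98 over 9 steers and 0.96 over the 7 steers without SS 274 and SS 294. GAS1 and CDKN1C had r of 0.96 and 0.90, and SFRP2 and CILP 0.97 and 0.91. The least alike of the 28 pairs were CDKN1C and MMP16, at 0.62 and 0.21. MMP16 alone of the 8 was higher in SS 294 than in SS 274, and it shared with MXRA8 and LOXL1 a level in SS 299 above every NS.

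The nearest genes in pattern were sought among the 2052 identifiers with a name. TGFBR3, the betaglycan co-receptor of TGF-beta, was the most like the mean of the 8 genes, with r of 0.99, and was followed by DDR2, a collagen receptor, CD34, a surface protein of stromal and endothelial cells, SEMA3C and TIMP2 at 0.98. PRNP was closest to SFRP2 (0.99 over 9 steers and 0.99 over 7), CRISPLD2 to CILP (0.98 and 0.95) and to PODN (0.99 and 0.98), and SNX9 to MXRA8 (0.98 and 0.90). HTRA1, a secreted serine protease, was closest to MMP16 (0.98 and 0.93). CDKN1C had the early response genes DUSP1 (0.98 and 0.97) and JUN (0.97 and 0.87) among its 5 nearest, with the peroxide-degrading enzyme CAT (0.97 and 0.93), the fatty acid synthesis enzyme ACACA and the microfibril gene FBN1. The nearest to GAS1 were PNP (0.97 and 0.94) and RAMP2, ADIRF, DUSP1 and CLEC3B at 0.96. The 5 nearest to LOXL1 had r of 0.96 to 0.98 over 9 steers, and over 7 steers r ran from 0.67 for ZFAND5 to 0.89 for the metalloproteinase MMP14.

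The families to which the 8 genes belong were described from 15 lists with 180 genes, of which 32 had a name here and were tested. None of the 32 was called, where the background was 0%. A log2 difference above 0 was found for 29 of them, against 35.2% of the genes tested, with a median of 0.47. After median-of-ratios scaling these values were 30 and 0.62, where the median over all genes tested was 0.01. That scaling turned CTNNB1 from -0.13 to 0.02. Without SS 274, 21 of the 32 were above 0. Of the 32, 19 were highest in SS 274 and 9 in SS 294, against 11.9% and 17.4% of the genes tested. The 32 are only the listed genes with a name here, so they may not stand for the families. No gene of the lists of secreted Wnt antagonists, Wnt ligands and R-spondins, hedgehog pathway, inhibitors of cyclin-dependent kinases or lysyl oxidases had a name here, so the relatives of SFRP2, GAS1, CDKN1C and LOXL1 were not analysed here.

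For PODN, the 4 named small leucine-rich proteoglycans (DCN, LUM, OGN and ECM2) were all highest in SS 274, with log2 differences of 0.41 to 0.72. Without SS 274 the differences of DCN and OGN were below 0, at -0.14 and -0.47, and those of ECM2 and LUM were 0.19 and 0.40. DCN, decorin, was at 4628 CPM in SS 274 and 2137 in SS 294, against 316 to 1158 CPM in the other 7 steers. OGN, osteoglycin, was at 3193 CPM in SS 274, 438 in SS 294 and 398 in NS 242, with NS 242 the highest of the other 7. For MMP16, the 2 named metalloproteinases MMP2 and MMP14 were highest in SS 274, at 612 and 224 CPM, unlike MMP16 itself. Their inhibitor TIMP2 was at 364 CPM in SS 274 and 228 in SS 294, against 48.3 to 99.6 CPM in the other 7. TIMP3, the other named inhibitor, was at 506 CPM in SS 274 and 514 in SS 294, so that SS 294 was the highest steer, as for MMP16, and its difference of 0.28 was -0.0213 without SS 274.

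For CILP, which binds TGF-beta, the 7 named genes of TGF-beta and IGF signalling had a median log2 difference of 0.19, and 5 of them were highest in SS 274. TGFBR3 was at 683 CPM in SS 274, 380 in SS 294 and 31.3 to 188 CPM in the other 7 steers, and its difference was 0.64. The differences of TGFBR2, a TGF-beta receptor, and of the IGF binding protein IGFBP7 were 0.12 and 0.30, and that of IGFBP3 was -0.58. For MXRA8 and CDKN1C the lists had 1 named gene each, the integrin chain ITGAV at 0.09 and the imprinted GNAS at 0.07. Without SS 274 the differences of TGFBR2 and GNAS were below 0, at -0.12 and -0.0051. That of TGFBR3 was then 0.09, that of IGFBP7 0.17, that of ITGAV 0.13 and that of IGFBP3 -0.47. CTNNB1, the beta-catenin of Wnt signalling, was at 461 CPM in SS 274 and 478 in SS 294, within the 420.2 to 707 CPM of the other 7.

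The 6 named elastic fibre genes, the material on which LOXL1 acts, included 4 that were highest in SS 274. FBN1, fibrillin of the microfibrils, was at 14551 CPM in SS 274 and 2858 in SS 294, against 545 to 1973 CPM in the other 7 steers. EFEMP1, a protein of the fibulin family, was at 1914 CPM in SS 274 and 375 in SS 294, against 84.8 to 243 CPM. Relative to COL1A2 FBN1 was also highest in SS 274, at 1742 CPM per 1000, as SFRP2, GAS1, CDKN1C and CILP were. LTBP4, a latent TGF-beta binding protein, had the largest difference of the 32 genes, 1.14 ± 0.32 (SE), with an adjusted p of 0.928 in limma. Of the 7 named collagens, 5 were highest in SS 294, as MMP16 was, and COL6A3 was at 3283 CPM there against 1082 CPM in SS 274. COL1A1 was highest in SS 274, at 6109.7 CPM, and its difference of 0.31 was -0.20 without that library, while the basement membrane collagens COL4A1 and COL4A2 had differences of 0.93 and 1.03. PCNA, a replication factor, was the 1 named gene of the 10 on the proliferation list. It was at 36.6 CPM in SS 274 and 28.7 in SS 294, below the 54.2 to 151 CPM of the other 7 steers. CDKN1C was high in the first of these libraries and within the NS range in the second. A link between the 2 genes was not tested.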

How the data were processed

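The deposited table gives CPM per Ensembl gene for 9 libraries made from rRNA-depleted total RNA with strand kept. The authors mapped reads to UMD3.1 with Tophat2. The submitters' processing notes also name HTSeq and edgeR without their roles, and whether strand was used in counting is not stated there. For each steer 100% of the deposited CPM were whole multiples of 1 read (tolerance 0.01 reads), so reads were recovered, and totals were 5412523 to 12278503. Every column was used. The mapped share that the study gives is lowest for SS 274.

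The members and lists were chosen with earlier results of these data known. Groups came from the sample labels. The fit was limma 3.58.1 (eBayes with trend, two-sided, Benjamini-Hochberg) in R 4.3.3 on log2(CPM + 0.5) of genes reaching 0.5 CPM in 4 or more steers. A call needed both an adjusted p below 0.05 and a log2 difference beyond 1 in size. The p-values set the difference between the group means against the spread between steers. The count tests edgeR 4.0.16 (quasi-likelihood) and DESeq2 1.42.0 used the recovered reads. Other pseudocounts, filters, scalings, thinned reads, quality weights and omitted steers were tried, and scripts were tested on simulated data. Python 3.11.15 (numpy 2.4.6, pandas 2.3.3, scipy 1.17.1, matplotlib 3.10.9) gave descriptions, Poisson intervals and exact conditional intervals of ratios.

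Names were available for 2052 identifiers, from the study's gene tables, which also gave the coordinates. Named genes were the 8 members, COL1A2 and DES, for each member and for their mean the 5 named genes with the highest r, from each family list the 2 with the highest CPM and the 2 with the largest difference, and markers of the libraries. OGN was added after its values were seen. Lists of squamous epithelium, lymphatic endothelium, enteric neurons and glia, cartilage and tendon, and skeletal muscle had no named gene and were not analysed here.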

Additional observations from a re-analysis of the deposited data

Results flagged for a closer look

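The values below are those of a steer whose gap to the next steer of its group, over the range of the group, was above the limit of Dixon's rule (0.829 for 4 steers and 0.71 for 5). The rule picked 18 of 60 groups and is used here to describe and not to test, because the 8 genes were chosen for high values in SS and the usual chance share of 1 in 20 does not apply. In CPM these were GAS1 (44.7) and CDKN1C (180.3) in SS 274, and relative to COL1A2 it was CDKN1C in SS 274 (21.6 CPM per 1000 CPM). The gap of SS 274 to the next SS was 0.929 of the whole SS range for CDKN1C and 0.808 for GAS1. SFRP2, CILP, PODN, MXRA8, LOXL1 and MMP16 did not stand out in CPM within the SS, where SS 294 lay between SS 274 and the rest or above SS 274.

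Per 1000 CPM of DES, SS 274 stood out for all 8 genes, with SFRP2 at 17583, GAS1 at 1603, CDKN1C at 6464, CILP at 8152, PODN at 6563, MXRA8 at 3987, LOXL1 at 3477 and MMP16 at 3662. These 8, and the 6 of NS 242 on the same scale, come from a single DES row and are not separate observations. Among the NS, steer 242 stood out for 6 genes, with GAS1 at 26.6, CDKN1C at 44.1, CILP at 117, PODN at 127, MXRA8 at 62.1 and LOXL1 at 44.7. The summed CPM of the adipocyte markers stood out in SS 274, at 4550.2.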

How the results depend on the processing

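No paired analysis was run. The numbers in the labels name steers, and none is shared by the groups. The labels give no pen, so pen-mates could not be paired. Of 347 values recomputed under alternatives, 309 kept their direction and side of the threshold or stayed within the spread of the steers. Genes called went from 0 to 19 with DESeq2 and to 2 with sample quality weights, and leaving out 1 steer gave 0 to 1 (1 without NS 108 and 1 without SS 299). At an unadjusted p below 0.05, the count of 610 became 390 without NS 108, 325 without NS 242, 1181 without SS 287, 359 without SS 294 and 345 without SS 274 and SS 294 together. The 55 higher and 555 lower among the 610 were 192 and 267 after median-of-ratios scaling, which moved the median of all genes from -0.13 to 0.01.

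The median log2 difference of the 8 genes, 0.78, was 1.77 in edgeR and 1.81 in DESeq2. It ranged from 0.19 to 1.32 with 1 steer left out, and was -0.67 without SS 274 and SS 294 together. Members highest in SS 274 numbered 0 to 8 and in SS 294 0 to 6 with 1 steer left out, the extremes coming from the omission of these libraries themselves. Relative to DES the median of 1.68 ranged from -0.0168 (without SS 274) to 2.49 with 1 steer left out, and was -0.0913 without both libraries.

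Without both libraries SFRP2 was at -0.75, GAS1 at -1.21, CDKN1C at -0.90, CILP at -0.58, PODN at -1.003, LOXL1 at -0.0902 and MMP16 at -0.0738. With 1 steer left out, GAS1 ranged from -0.59 to 0.75 and was below 0 without NS 108 (-0.0790), SS 274 (-0.59) or SS 294 (-0.0287). CDKN1C ranged from -0.42 (without SS 274) to 1.08, and PODN from -0.14 (without SS 274) to 1.26. CDKN1C was 2.50 in edgeR and 2.53 in DESeq2, which model mean counts, against 0.57. Relative to COL1A2, GAS1 (-0.0845) ranged from -0.38 to 0.21, with values above 0 without NS 165 (0.14), NS 242 (0.0816), SS 294 (0.0210) and SS 310 (0.21). CDKN1C (0.25) ranged from -0.22 (without SS 274) to 0.55, was -0.00655 without NS 152 and was -0.0316 without both libraries. PODN (0.18) ranged from -0.0588 (without NS 152) to 0.45 and was -0.13 without both. In that setting MXRA8, LOXL1, MMP16, CILP and SFRP2 stayed above 0, and the median of the 8 was 0.20. The cause was not tested.

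With 1 library per steer, variation within a steer is unknown. The lowest counts, those of GAS1, limit the precision of its ratios.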

Other observations

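Immune markers were also spread unevenly over the libraries in which the 8 stromal genes were high. The complement genes of macrophages C1QA, C1QB and C1QC were at 399, 433 and 243 CPM in SS 274 and at 84.4, 69.9 and 43.0 CPM in SS 294, so that SS 274 was the highest steer for all of them and SS 294 the lowest for C1QB and C1QC. AIF1, the fourth named macrophage marker, was highest in NS 242, at 45.5 CPM, against 38.2 CPM in SS 274. JCHAIN, the joining chain of antibodies made by plasma cells, was at 59.3 CPM in SS 274 and 86.9 CPM in SS 294, against 1169 to 4992 CPM in the other 7 steers. The pericyte gene RGS5 was lowest in SS 274, at 66.5 CPM. The summed level of 4 named B cell markers was 55.9 to 488 CPM in the NS. It was 15.6 to 36.03 CPM in SS 274, 287, 299 and 310 and 3.87 CPM in SS 294. SS 274 was the highest SS for this sum, but not for each marker. CD79A and CD79B were highest among the SS in SS 287, at 5.08 and 3.39 CPM, against 2.22 and 1.48 CPM in SS 274.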
